A study of Danio rerio with 6 samples.

Results

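The transcripts described here are those whose level stood higher in every tp63 mutant sample than in every WT sample of zebrafish embryos at 36 hpf. p63, the transcription factor encoded by tp63, is a master regulator of the embryonic epidermis. It is required for the stratified skin and for the apical ectodermal ridge of the pectoral fin bud. p63 activates epidermal genes, and it has also been described as limiting genes of other tissues in the ectoderm, and a level in a whole embryo does not tell direct from indirect regulation.

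Total RNA from pooled whole embryos was sequenced for 3 samples of WT and 3 of tp63 -/-. WT fish were of AB/Tübingen strains, and the mutants were homozygous for a small CRISPR-Cas9 deletion in an exon shared by all tp63 isoforms, which leaves no p63 protein. The mutant embryos came from 1 maintained line and DNA taken alongside the RNA served to genotype the pools. No agent was given to either genotype.

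Members were chosen from the counts scaled to counts per 1000000 (CPM), that is relative to the sum of all transcript counts of the sample. A transcript was taken if its lowest CPM among the 3 mutants was at least 1 and at least 1.5 times its highest CPM among the 3 WT samples. This gave 237 of 58549 Ensembl transcripts, or 0.813% of the 29141 with a CPM of at least 1 in every mutant sample. The same values that chose the members are described below, so the difference between the genotypes in them is a description and was not tested. With the genotypes exchanged, the same rule took 348 transcripts.

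The identifiers are Ensembl transcripts, and none of the 58549 could be paired with a gene symbol, so the members carry no gene names, no functions and no sequences here. For the same reason tp63 itself and the markers of skin, muscle, blood or nervous tissue were not analysed here. In a whole embryo, a higher share of one tissue and more RNA per cell of that tissue cannot be told apart. Members other than 2 are called below by their rank, either by the ratio of the lowest mutant to the highest WT CPM or by the mean CPM in the mutants, with transcripts of near-identical counts ranked once.

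The total counts per sample lay between 77133790 and 81976521. They are larger than the number of sequenced reads given in the study's methods, so a read may have been counted on several transcripts, and the CPM are relative to counts rather than to reads. Replicates of 1 genotype differed by far more than counting noise (chi-square per degree of freedom of 26.8 or higher), so none was a copy of another. The factors that edgeR's TMM method gave to the samples nevertheless differed, with 0.833 for WT replicate 1 as the lowest and 1.204 for replicate 2 of the mutants as the highest. On the CPM scale the median transcript with a mean CPM of at least 1 stood 0.15 higher in mutants than in WT on the log2 scale, and after TMM scaling it stood at -0.03. The CPM differences of the members have to be read relative to that shift.

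Most members were lowly expressed and moderately separated. Their mean CPM in the mutants had a median of 3.25, with quartiles of 1.93 and 6.32, and their mean CPM in WT had a median of 1.16. The ratio of the lowest mutant to the highest WT CPM had a median of 1.76 and an upper quartile of 2.07. It was under 2 in 167 members, between 2 and 3 in 49, and at least 3 in 21. The ratio of the mutant to the WT mean had a median of 2.53.

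The members covered a narrow part of the transcriptome. Together they summed to between 718 and 804 CPM in the WT samples and to between 1626 and 1831 CPM in the mutants. The transcripts chosen by the mirrored rule had a far higher summed CPM, at 30125 to 33023 in WT and 12110 to 15058 in mutants. A read may enter these sums several times, so they do not measure amounts of RNA. The share of transcripts that were members fell with level, from 1.33% of those with a mean mutant CPM between 1 and 2 to 0.224% of the 3125 at 50 or above; this share depends on the rule. In the plot of the lowest mutant against the highest WT CPM, the members formed a thin band along the upper edge of all transcripts, with few points far above it.

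**Figure D1:**
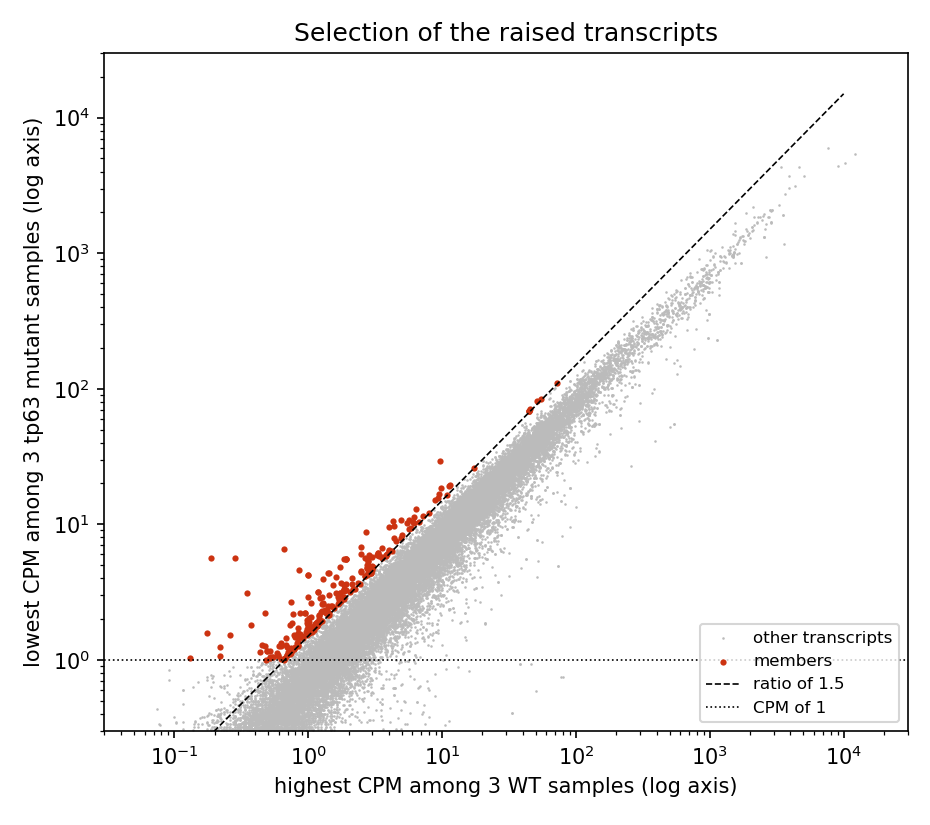
Each point is a transcript, with its highest CPM among the 3 WT samples on the horizontal log axis and its lowest CPM among the 3 tp63 mutant samples on the vertical log axis. The 237 members (red) lie above the dashed line of ratio 1.5 and the dotted line of 1 CPM, most of them close to the former, with a median ratio of 1.76.

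No member was silent in WT. Of the 237 members, 80 had a CPM under 1 in every WT sample, 115 had at least 1 in every WT sample, and 42 lay on both sides. The lowest count of any member in a WT sample was 2, and the lowest in a mutant sample was 78. No member had a count of 0 in any sample, so all ratios rest on counted reads, although those of the lowest WT levels rest on very few.

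The edge of the set was densely occupied. The 3 members nearest to the ratio limit had ratios of 1.501, 1.501 and 1.503, and the 3 nearest transcripts outside had 1.498, 1.497 and 1.496. Ratios under 1.6 were found in 70 members, while 91 further transcripts at the same minimum level lay between 1.4 and 1.5. At the limit on level, the lowest mutant CPM was 1.00 in the nearest members and 0.988 in the nearest transcripts outside, and a further 123 transcripts with the required ratio had a lowest mutant CPM between 0.5 and 1.

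Many members were not independent measurements. Exactly equal counts in all 6 samples reduced the 237 to 229 distinct profiles. Joining transcripts whose counts differed by no more than 5% in each sample gave 212 profiles, of which 193 were single members and 19 held 44 members. These comprised 14 pairs, 4 groups of 3 and 1 group of 4. Transcripts of one gene that share exons would give such counts if reads were counted on each of them, but the counting options are not given in the sources used here.

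The profile with the widest separation was that of ENSDART00000052620.4. Its CPM was 0.154, 0.186 and 0.0519 in WT replicates 1, 2 and 3, and 8.33, 5.68 and 8.51 in the mutants. These rest on 12, 15 and 4 counts in WT and on 649, 466 and 663 counts in the mutants. The genotypes were therefore far apart, with a ratio of 30.5 between the lowest mutant and the highest WT sample. The means were 0.131 ± 0.0702 CPM (SD, n = 3) in WT and 7.51 ± 1.58 CPM (SD, n = 3) in mutants, and the log2 fold change fitted by edgeR was 5.68 (standard error 0.43).

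The second profile by ratio had a CPM of 0.0770, 0.286 and 0.117 in WT replicates 1, 2 and 3 and of 5.98, 5.67 and 6.31 in the mutants. The WT values rest on 6, 23 and 9 counts, and the SD was 0.111 CPM in WT and 0.321 CPM in the mutants (n = 3). The fourth profile had 0.0385, 0.174 and 0.0259 CPM in WT and 2.00, 1.94 and 1.58 CPM in mutants. WT replicate 2 was the highest WT sample in both of these profiles and in the first.

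The third, the fifth and the ninth profile by ratio shared a different shape, with tp63 mutant replicate 3 far above the other mutants. The third had 6.55, 7.45 and 15.2 CPM in mutant replicates 1, 2 and 3, against 0.654, 0.460 and 0.428 CPM in WT. The fifth had 3.10, 3.96 and 7.25 CPM in the mutants, against 0.346, 0.224 and 0.246 CPM in WT. The ninth had 4.62, 4.70 and 8.92 CPM in the mutants, against 0.410, 0.832 and 0.856 CPM in WT. In all 3 the other mutants still stood well above every WT sample. Ratios were 10.02, 8.96 and 5.397. Leaving out mutant replicate 3 left them unchanged because it was never the lowest mutant, and leaving out a mutant can never lower this ratio.

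In all, 6 members, in 6 distinct profiles, had mutant replicate 3 at least 1.5 times above both other mutants. Their ratios ran from 1.66 to 10.02 with or without it, since the lowest mutant was another sample. Such a replicate-3 peak was found in 0.314% of transcripts with a mean CPM of at least 1. A peak of the same size was seen in 6 members for mutant replicate 1 and in 3 for mutant replicate 2. Among the transcripts with a mean CPM of at least 1, the peak lay in mutant replicate 2 in 17.9% and in mutant replicate 1 in 0.566%. The rule limits the lowest mutant and the highest WT sample, so the counts in members are partly fixed by it.

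Other profiles with a high ratio had no replicate-3 peak. The sixth had 0.0385, 0.0994 and 0.130 CPM in WT and 1.03, 1.46 and 1.21 CPM in mutants. The seventh had 0.0770, 0.261 and 0.169 CPM in WT and 1.51, 2.45 and 1.90 CPM in mutants. The eighth had 0.205, 0.0994 and 0.220 CPM in WT and 1.24, 1.74 and 1.36 CPM in mutants. All 3 had WT levels of 3 to 21 counts, and no mutant sample of theirs exceeded 2.45 CPM.

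The tenth profile had 0.295, 0.373 and 0.311 CPM in WT and 1.82, 2.16 and 2.07 CPM in mutants. The twelfth had 0.462, 0.472 and 0.389 CPM in WT and 2.21, 2.59 and 2.49 CPM in mutants. The thirteenth, a pair of transcripts with equal counts, had 0.859, 0.981 and 0.998 CPM in WT and 4.25, 4.26 and 4.52 CPM in mutants. The fourteenth had 0.744, 0.720 and 0.545 CPM in WT and 2.68, 2.83 and 3.08 CPM in mutants. These 4 profiles were even among the mutants, with SDs of 0.174, 0.197, 0.153 and 0.202 CPM (n = 3). Their WT SDs were 0.0410, 0.0453, 0.0758 and 0.109 CPM (n = 3). In the fourteenth the highest WT sample was 1.37 times the lowest, which was also the median over all members.

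The eleventh profile, also among the 6 with a replicate-3 peak, was uneven in both genotypes, at 0.0770, 0.0497 and 0.220 CPM in WT and 1.39, 1.06 and 2.21 CPM in mutants. The fifteenth had 1.72, 2.70 and 1.97 CPM in WT and 9.25, 15.5 and 8.78 CPM in mutants. Here replicate 2 was the highest sample of both genotypes. The nineteenth stood out by its level, at 5.71, 4.53 and 9.68 CPM in WT and 29.4, 37.3 and 33.0 CPM in mutants, which also gave it rank 5 by mean level. It was the highest member by level with a ratio of at least 3.

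Profiles 16, 17 and 18 resembled each other closely without meeting the limit for near-identical counts. Their mutant CPM in replicates 1, 2 and 3 was 5.68, 4.43 and 4.38 in the first, 5.76, 4.59 and 4.39 in the second and 4.98, 4.001 and 3.94 in the third. Replicate 1 was the highest sample of both genotypes in each of them. Whether they come from 1 gene was not tested.

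**Figure D2:**
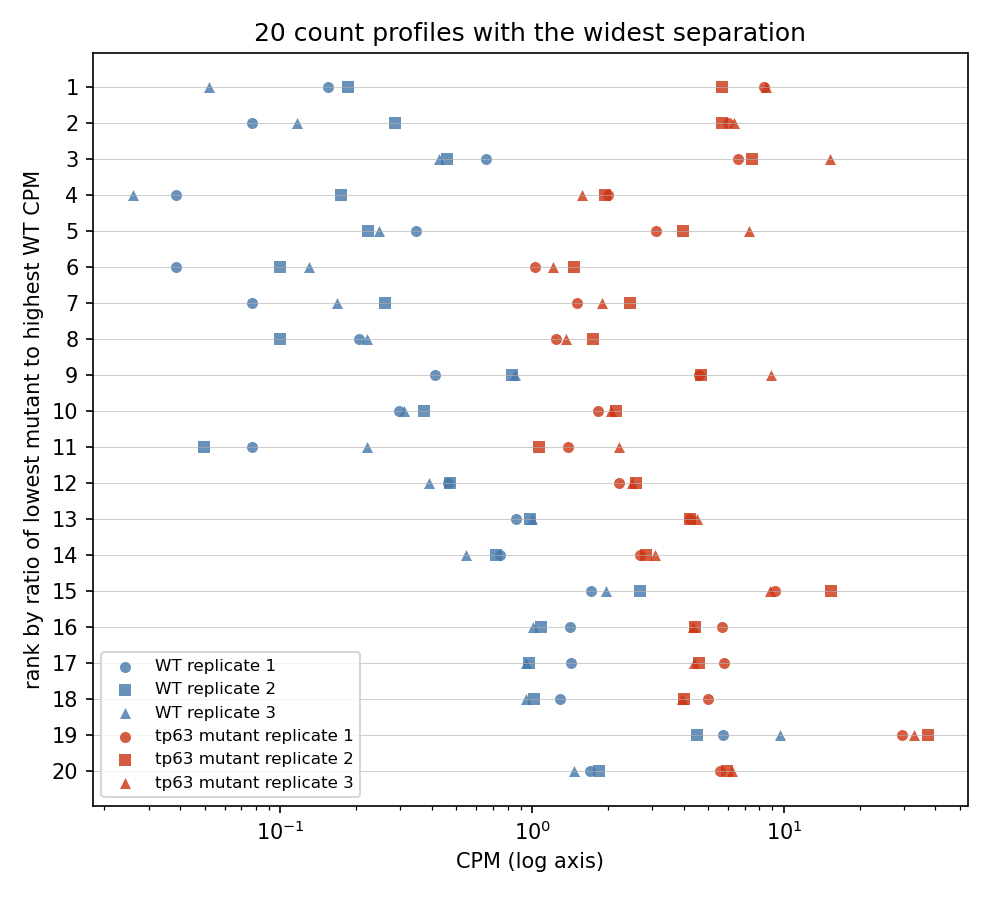
The CPM of each sample (log axis) is shown for the 20 distinct count profiles with the highest ratio of the lowest mutant to the highest WT CPM, ordered by that ratio. WT samples are blue and mutants red, with a circle, square and triangle for replicates 1, 2 and 3, and the triangle stands apart from the other mutants in profiles 3, 5, 9 and 11.

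At the other end, the most abundant members were barely above the limit of the rule. The highest mean level belonged to ENSDART00000028260.9, with 67.6, 72.2 and 71.2 CPM in WT replicates 1, 2 and 3 and 136, 110 and 155 CPM in the mutants. WT samples differed little among themselves, at 70.3 ± 2.45 CPM (SD, n = 3), and the mutants more, at 134 ± 22.7 CPM (SD, n = 3). Its ratio was 1.52, and its log2 fold change in edgeR was 0.76 (standard error 0.22).

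The second profile by level had 42.4, 51.1 and 49.8 CPM in WT and 96.5, 80.9 and 109 CPM in mutants. The third had 47.7, 55.0 and 51.6 CPM in WT and 87.8, 83.7 and 92.8 CPM in mutants. The fourth, a group of 4 transcripts with near-identical counts, had 37.5, 42.6 and 45.7 CPM in WT and 82.6, 70.3 and 83.85 CPM in mutants for its most abundant transcript. In each of the 4 profiles mutant replicate 2 was the lowest mutant, and their ratios lay between 1.52 and 1.58. These 4 profiles, 7 members in all, held from 33.8% to 37.4% of the summed CPM of the members in the mutant samples and from 42.3% to 45.6% in WT. The group of 4, whose counts may come from the same reads, enters these shares 4 times, and with each near-identical profile taken once they were 26.1% to 29.9% in the mutants and 34.6% to 36.7% in WT.

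The members departed from the rest of the transcriptome in which replicate was highest. Among the 30544 transcripts with a mean CPM of at least 1, mutant replicate 2 was the highest mutant in 58.4% and replicate 3 in 17.0%. Among the members, replicate 2 was so in 27.4% and replicate 3 in 44.3%. In WT, replicate 2 was the highest in 60.5% of those transcripts and in 52.7% of the members. After TMM scaling, mutant replicate 2 was the highest mutant in 8.86% of the members against 38.0% of the transcripts, and it was the lowest in 73.8% of the members against 47.6%. The rule requires a high lowest mutant and a low highest WT value on the CPM scale, so these orders are partly fixed by it.

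**Figure D3:**
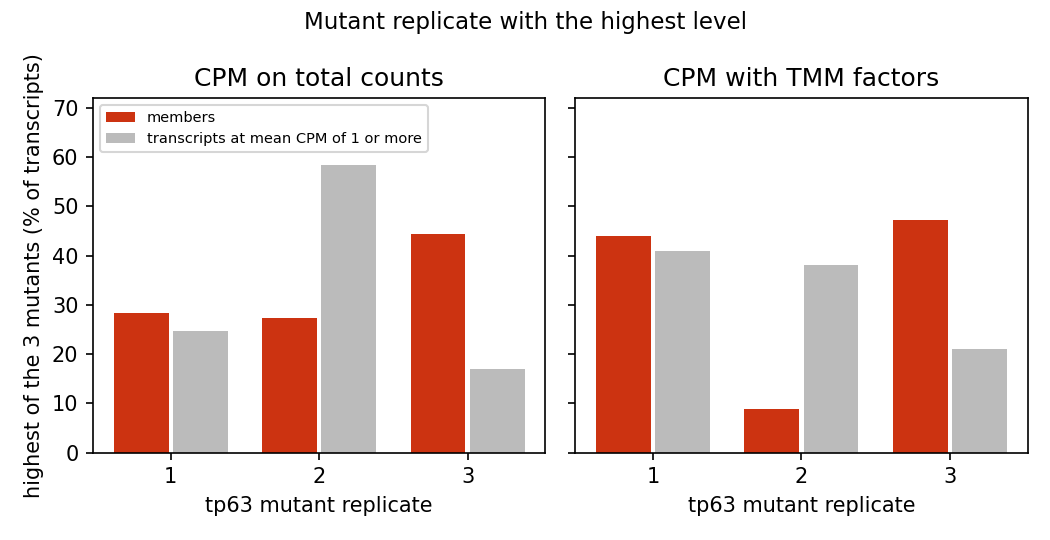
Bars give the percentage of transcripts whose highest mutant sample was replicate 1, 2 or 3, for the 237 members (red) and for the 30544 transcripts with a mean CPM of at least 1 (grey), on CPM (left) and on CPM with TMM factors (right). Mutant replicate 2 was the highest in 27.4% of members against 58.4% of transcripts on CPM, and in 8.86% against 38.0% with TMM factors.

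The spread within each genotype was of the same order as in the rest. The median SD of log2 CPM over the 3 mutants was 0.20 for the members and 0.24 for the transcripts with a mean CPM of at least 1, and over the 3 WT samples it was 0.24 and 0.28. With TMM factors the mutant values were 0.26 and 0.24. The highest mutant was at least 2 times the lowest in 7 members (2.95%) and in 12.9% of the transcripts, while the highest WT sample was at least 2 times the lowest in 47 members (19.8%) and in 21.2% of the transcripts. A limit on the lowest mutant removes transcripts with 1 low mutant, which the comparison with all transcripts does not allow for.

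Without overlap between genotypes and irrespective of size, 12.3% of the transcripts with a mean CPM of at least 1 had every mutant above every WT sample on the CPM scale, and 4.75% had every WT above every mutant. With TMM factors the former share was 6.19%. The number of transcripts without overlap therefore depended on the scaling. Some members lie outside these shares, because their mean over all samples was under 1 CPM. With TMM factors in place of totals, 129 transcripts passed the rule, and 119 of them were members, which is 50.2% of the members and 92.2% of the 129. All 237 members kept every mutant above every WT sample. With TMM factors between 0.833 and 1.204, no CPM ratio of at least 1.5 could be reversed, so that order was fixed by the rule. The lowest ratio with TMM factors was 1.04, and 112 members had a ratio under 1.5. The mirrored rule moved the other way, from 348 to 494 transcripts.

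**Figure D4:**
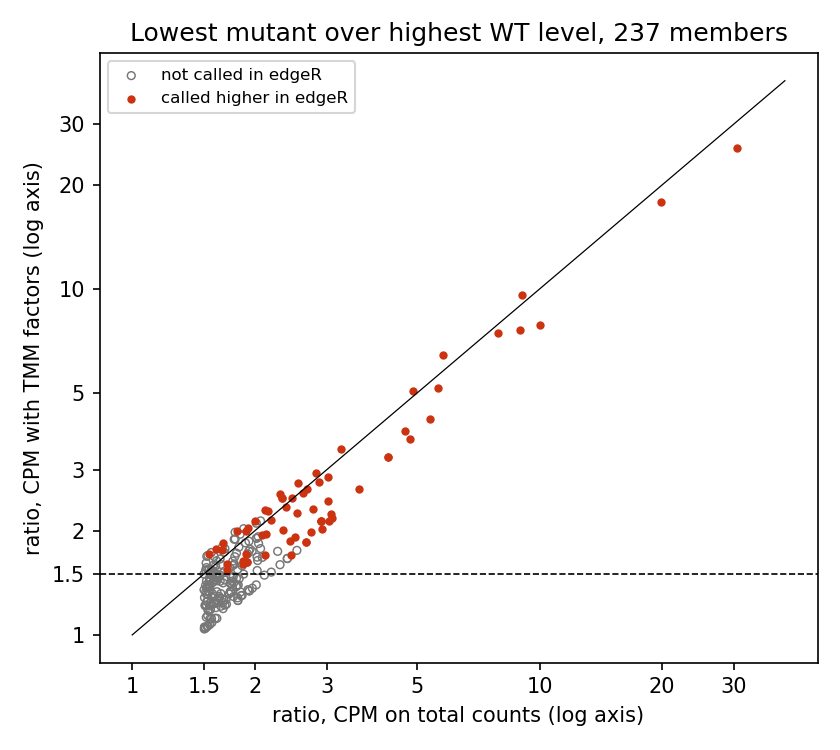
For each of the 237 members, the ratio of the lowest mutant to the highest WT level is shown on CPM (horizontal log axis) and on CPM with TMM factors (vertical log axis), with the solid line of equality and the dashed line of 1.5. Filled points are the 65 members called higher in edgeR, and of the 237 points 112 fall under the dashed line.

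On the CPM scale, WT replicate 2 decided the size of the set more than any other sample. Without it, 1218 transcripts passed the rule, or 4.18% of those with a CPM of at least 1 in every mutant, and without any other sample the number lay between 275 and 436. Among the 981 transcripts that were added, the CPM in WT replicate 2 was a median of 1.79 times that of the higher of the other WT samples. Of these, 647 (66.0%) had their highest mutant value in replicate 2, against 58.4% of all transcripts with a mean CPM of at least 1. WT replicate 2 was the highest WT sample in 60.5% of the latter on CPM and in 34.9% with TMM factors. Among the members these shares were 52.7% and 29.1%. No count without a sample was made with TMM factors.

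In edgeR's quasi-likelihood test over all 41974 transcripts that passed its filter on low counts, all 237 members were tested. Of these, 65, in 60 distinct profiles, were called higher in mutants at a Benjamini-Hochberg adjusted p under 0.05, and none was called lower. Over all transcripts tested, 0.272% were called higher. Members were chosen on the same contrast, so nothing follows from this difference in share. The median log2 fold change was 1.16 for the members and 0.01 for all transcripts tested. All 237 members had a positive fold change, from 0.53 to 5.68. The rule fixed this sign and raised the median, and it left no member to be called lower, so nothing follows from these values either.

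The called members had similar WT levels to the others and a wider gap between the genotypes. The call and the rule both rest on that gap, so the wider gap follows from how they were chosen. Their mean WT CPM had a median of 1.09 against 1.18 in the 172 not called, and their mean mutant CPM had a median of 4.46 against 2.76. All 21 members with a ratio of at least 3 were called, as were 30 of the 49 between 2 and 3, and 14 of the 167 under 2. None of the 7 members at a mean of 50 CPM or more was called in this fit, which has no block, ENSDART00000028260.9 among them. All 65 called members also kept a ratio of at least 1.5 with TMM factors, which the fit itself uses. DESeq2 called 181 of the members higher, and 0.832% of all transcripts with an adjusted p. In edgeR, 87 members and 0.271% of all transcripts were called without the filter on low counts, and 48 members and 0.156% with 10 or more counts required in each sample.

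In the edgeR fit with all samples, its filter and no block, the 49 non-members called higher all had a lowest mutant CPM under 1. Every transcript that this fit called higher and that had a CPM of at least 1 in each mutant was thus a member. DESeq2 called 402 transcripts higher, 181 of them members, and the replicate block in edgeR 879, with 194 members. The levels of the non-members called there were not examined. The number of called members depended on some samples more than on others. It was 64, 62 and 15 without WT replicates 1, 2 and 3, and 26, 55 and 14 without the mutant replicates 1, 2 and 3. The share of all transcripts called higher was 0.256%, 0.42% and 0.0443% without WT replicates 1, 2 and 3, and 0.1%, 0.177% and 0.0445% without the mutant replicates 1, 2 and 3. With all samples and with any 1 of them left out, the call was kept by the same 14 members, in 13 distinct profiles. These were the profiles ranked 1 to 7, 9, 10, 12, 13, 15 and 19 by ratio, whose values are given above. They are the 14 members called without mutant replicate 3, the smallest of these counts. That fit called only 19 of 42740 transcripts higher, so no more than 19 could keep the call in every fit. The share of all transcripts that kept the call in every fit was not computed. Members were chosen on the same contrast, so nothing follows from this number.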

How the data were processed

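Samples of 3 WT and 3 tp63 -/- pools of embryos at 36 hpf were grouped by their titles. The authors aligned single-end reads to GRCz10 with STAR and ran htseq-count on Ensembl transcripts, and they deposited the raw counts. The annotation release and counting options are not given in the sources used here. The 5 category lines of htseq-count, which made up 37.1% to 38.6% of all values in a file, were left out of totals and tests. The lines for low alignment quality and for non-unique alignment held the same number in each file, for example 10865644 in WT replicate 1. This share may therefore not be one of distinct reads.

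The members and lists were chosen with earlier results of these data known. CPM were computed from the sum of transcript counts. Counts were tested in R 4.3.3 with edgeR 4.0.16 (filterByExpr, TMM, quasi-likelihood test, no block), and an adjusted p under 0.05 (Benjamini-Hochberg) was the threshold. The script was tested on simulated data. Standard errors are the size of the log2 fold change over the square root of F. Alternatives were DESeq2 1.42.0, RLE factors, other filters and limits, a replicate block, identical counts taken once and each sample left out. Near-identical counts differed by at most 5% in every sample, joined by single linkage. Planned gene lists could not be used, since no table pairs the identifiers with symbols. The rule for identifiers to name was then the member with the highest mean mutant CPM and the member with the largest ratio, the WT value taken as no less than 3 counts. The labels do not say that replicates came from separate crosses, whereas the paper calls them biological. Python 3.11.15 with numpy 2.4.6, pandas 2.3.3 and scipy 1.17.1 was used for the counts and figures.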

Additional observations from a re-analysis of the deposited data

How the results depend on the processing

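The number of members followed the limits and the scaling. It was 129 with TMM factors and 139 with RLE factors, of which 119 and 126 were members (2 counts chosen after seeing the data), 683 with the looser and 70 with the stricter limit on the ratio, 360 with a lowest mutant CPM of 0.5 and 65 with one of 5. Leaving out each sample in turn gave from 275 to 1218. Identical counts taken once left 229. The number of members called higher was 181 with DESeq2, where 0.832% of all transcripts with an adjusted p were called higher, and 194 with the replicate block, where 2.09% were, and from 14 to 64 with each sample left out. The cause of these differences was not tested, except that a limit or a filter changes the transcripts admitted. Members highest in tp63 mutant replicate 2 numbered 21 with TMM and 25 with RLE factors, against 65 on CPM. The median log2 fold change of the members stayed between 1.09 and 1.26 in all 12 alternative fits. The members were chosen on these same counts, so a similar median was largely fixed by the rule and nothing follows from it.

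The deviations of same-numbered WT and mutant samples from their group means had correlations across transcripts of 0.61, 0.51 and -0.09 for replicates 1, 2 and 3. Replicates 1 and 2 of each genotype correlated best with their own number. Replicate 3 of neither genotype did, so the numbers were not taken to pair the samples. Over the 237 members the correlations were 0.27, 0.13 and 0.11. With the replicate block, the log2 fold change of ENSDART00000028260.9 was 0.74 with an adjusted p of 0.0212 from edgeR, against 0.187 without it and values from 0.0582 to 0.688 under its other alternatives. ENSDART00000052620.4 kept its call in each of its 9 alternative fits. Both transcripts were picked from members chosen on the same contrast, so nothing follows from these calls and adjusted p. At these depths, low WT counts limit the precision of the largest ratios, which use the highest WT sample. That sample had 15 counts in ENSDART00000052620.4 and 10 counts in the sixth profile by ratio.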
